A study of Mus musculus with 6 samples.

Results

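The miR-17-92 cluster and its paralogs were followed in mouse oocytes through 10 of the 577 microRNA entries of an Agilent array. The entries were chosen by name: mmu-miR-17, mmu-miR-18a, mmu-miR-19a, mmu-miR-19b, mmu-miR-20a, mmu-miR-20b, mmu-miR-25, mmu-miR-92a, mmu-miR-93 and mmu-miR-106b. The prefix mmu, for mouse, is left out from here on. Total RNA of pooled C57BL/6 oocytes was hybridised to 6 one-colour arrays, 2 for each of 3 groups. Aged large oocytes measured 60 to 80 µm and came from mice of 41 to 43 weeks, or 42 to 44 weeks by the sample descriptions. Young large oocytes also measured 60 to 80 µm, but their donors were 6 to 8 weeks old. Young small oocytes measured 20 to 50 µm in mice of 6 to 8 weeks, and the labels call them non-growing or place them in primordial follicles. No group carried a transgene or a treatment, and neither the number of oocytes in a pool nor the amount of RNA is given. Duplicates were hybridised per sample, by the series text, and separate animals or pools are not labelled. The p-values therefore cover only the spread between arrays, and that may be technical.

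The 3 clusters are paralogous, and each is cut from 1 primary transcript. In mice, loss of miR-17-92 is lethal around birth, whereas animals without the other clusters are viable. The products fall into families by their seed, the stretch at the 5′ end that pairs with target messages. The miR-17 seed type represses cell cycle inhibitors such as Cdkn1a and the pro-apoptotic Bcl2l11, and the miR-92 type shares Bcl2l11 as a target. Grown mouse oocytes carry microRNAs but are known for weak repression by them.

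All 10 entries matched a mature sequence in RefSeq (build GRCm38.p6). The array files name no build, so the places given here are those of RefSeq. The miR-17-92 cluster lies at chr14:115043684-115044496 on the plus strand, miR-106a-363 at chrX:52741697-52742563 on the minus strand, and miR-106b-25 at chr5:138165332-138165807 on the minus strand, within the gene Mcm7, which encodes a subunit of the replicative helicase. miR-17, miR-18a, miR-19a and miR-20a are made by the first cluster, miR-20b by the second, and miR-106b, miR-93 and miR-25 by the third cluster. miR-19b and miR-92a have identical copies in the first and second, so their signal cannot be assigned to one of them. The sequences are shown because the members are described by seed type; capitals mark the seed, bases 2 to 8.
miR-17: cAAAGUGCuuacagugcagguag
miR-20a: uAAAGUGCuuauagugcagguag
miR-20b: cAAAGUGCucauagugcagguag
miR-93: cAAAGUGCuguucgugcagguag
miR-106b: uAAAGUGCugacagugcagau
miR-18a: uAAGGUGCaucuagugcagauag
miR-19a: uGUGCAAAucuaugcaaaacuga
miR-19b: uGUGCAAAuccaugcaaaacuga
miR-25: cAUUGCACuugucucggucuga
miR-92a: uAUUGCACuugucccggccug
The miR-18 seed differs from the miR-17 seed at 1 base. Members of 1 seed type are also alike outside the seed: miR-19a and miR-19b differ at 1 of 23 bases, miR-20a differs from miR-20b and from miR-17 at 2 of 23 each, and miR-25 and miR-92a differ at 3 of the 21 bases compared. Hybridisation of 1 microRNA to the probes of its near copy was not tested.

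Overall signal varied between arrays. Scaling factors were 0.954 and 1.06 on aged large, 1.94 and 1.48 on young large, and 0.582 and 0.589 on young small arrays. Of the 577 entries, 79 and 89 were called detected on aged large, 102 and 97 on young large, and 57 and 60 on young small arrays. Signals below are scaled by these factors, which come from the 75th percentile of the 56 microRNAs detected on all 6 arrays. A change is therefore relative to those microRNAs, and in such bulk RNA fewer cells of a type and less RNA per cell cannot be told apart. For tests, scaled signals under 6.17 were set to that floor. Duplicate arrays lay close: the largest ratio between them among members detected on both was 1.10 in aged large, 1.12 in young large and 1.05 in young small oocytes. All 4 listed markers of oocytes and early embryos (miR-291a-3p, miR-292-3p, miR-294 and miR-295) were detected, miR-295 only on the 4 large-oocyte arrays and the others on all 6. Their summed raw signal was 108 to 118 on aged large, 172 to 208 on young large and 21.1 to 22.3 on young small arrays. Of 7 granulosa cell markers 5, of 7 blood cell markers 6, and all 6 stroma, smooth muscle and endothelium markers on the array were detected on none. The exceptions were miR-21 and miR-212 of granulosa cells and miR-223 of blood cells. The summed raw signal of the granulosa list was 17.5 to 21.8 on aged large, 22.5 to 35.2 on young large and 5.71 to 6.79 on young small arrays, and that of the blood list was 47.1 to 58.9, 38.4 to 49.1 and 4.75 to 5.36. Raw sums also carry the differences in overall signal between arrays. Scaled, miR-21 had 10.1 and 11.4 in aged large, 10.7 and 11.2 in young large, and 13.0 and 11.2 in young small oocytes. For miR-212 the scaled signals were 15.6 and 7.88, 8.58 and 7.71, and 5.76 and 4.41 in the same order. Those of miR-223 are given with each comparison below. The part of these markers in the results was not tested.

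Detection divided the members. miR-20a, miR-20b, miR-93, miR-19b and miR-92a were detected on all 6 arrays. miR-106b and miR-19a were detected on every large-oocyte array and on 1 of 2 young small arrays. miR-18a was detected on both young large arrays only, miR-25 on those and on 1 aged large array, and miR-17 on 1 young large array. These last 3 lay under the floor on all 6 arrays and were not tested. The remaining 7 entered both comparisons, and a member could pass the filter through the group where it was higher, so their counts describe only the members that could be tested. The lowest fraction of spots kept as inliers for any member was 0.85.

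Other products of the clusters on the array were not detected. Of 11 such entries, among them miR-106a, miR-18b, miR-363 and 8 star arms (the strand of a hairpin that is usually discarded), 0 were detected on any array. The highest raw signals were 5.05 for miR-106a, which differs from miR-17 at 1 of 23 bases, and 4.88 for miR-17*, both on young large array 1. miR-32, miR-92b and miR-367, which carry the miR-92 seed but lie outside the clusters, were also undetected on all 6 arrays, at raw signals of at most 0.626, 2.43 and 0.560.

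In the miR-17 type, miR-20a had scaled signals of 42.5 and 44.5 in aged large, 56.9 and 57.5 in young large, and 82.1 and 81.0 in young small oocytes. The 3 groups did not overlap, and the order from high to low was young small, young large, aged large. miR-20b kept the same order at a lower signal, with 20.2 and 22.2 in aged large, 27.2 and 28.2 in young large, and 38.2 and 40.0 in young small oocytes. The log2 ratio of miR-20b to miR-20a on the same array ranged over only 0.10 across the 6 arrays. These microRNAs come from different chromosomes but differ at only 2 of 23 bases. Whether miR-20a adds to the signal of the miR-20b probes was not tested.

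miR-93 had 6.35 and 6.72 in aged large, 7.51 and 7.05 in young large, and 12.1 and 11.5 in young small oocytes. Again the groups did not overlap, with both large groups close to each other and well below the small one. Its transcript partner miR-106b had 6.07 and 5.77 in aged large, 7.96 and 8.53 in young large, and 7.37 and 10.5 in young small oocytes. The young small arrays of miR-106b spanned the young large ones, and both aged large arrays lay lowest, under the floor. The log2 ratio of miR-106b to miR-93 ranged over 0.98 across the arrays, with its lowest value on young small array 1, which did not detect miR-106b. At such signals the deposited error was large, for example 29.0% and 25.3% of the miR-106b signal on the aged large arrays.

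miR-17, which gives the type its name, was close to background. It had 0.977 and 1.84 in aged large, 2.96 and 3.07 in young large, and 3.44 and 2.18 in young small oocytes, with errors from 29.3% to 173% of the signal. Young large oocytes, where 1 of 2 arrays detected it, lay above aged large ones, and the young small arrays spanned the young large ones. Young large array 2 did not detect miR-17 at 3.07, although its lowest detected signal of any microRNA was 0.942. The lowest detected signal of an array therefore sets no limit for miR-17, and no fold is given.

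miR-18a, the 1 member of its seed type, had 1.99 and 2.78 in aged large, 3.78 and 3.85 in young large, and 3.55 and 4.67 in young small oocytes. Young large oocytes lay above aged large ones, in which neither array detected it, and no fold is given here either.

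In the miR-19 type, miR-19b had 60.2 and 61.1 in aged large, 88.3 and 89.1 in young large, and 95.1 and 95.9 in young small oocytes. Young large and young small oocytes lay near each other, and aged large oocytes stood apart below both. The deposited error of miR-19b was 7.90% to 8.24% of the signal, more than the gap between duplicates. miR-19a had 6.00 and 6.50 in aged large, 10.3 and 9.19 in young large, and 8.20 and 8.50 in young small oocytes, so that for this microRNA the young large group was highest. One aged large array lay under the floor and 1 young small array was not called detected. The deposited error of miR-19a was 29.1% and 22.4% of the signal on the aged large arrays.

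In the miR-92 type, miR-92a had 90.2 and 88.4 in aged large, 76.0 and 80.1 in young large, and 102 and 102 in young small oocytes. Its groups did not overlap, and young large oocytes were lowest, an order that none of the other members detected on all 6 arrays had. miR-25, the miR-92 type product of Mcm7, showed the same order near background, with 3.68 and 3.94 in aged large, 2.97 and 3.17 in young large, and 4.10 and 4.86 in young small oocytes. Neither young small array nor aged large array 1 detected it, and no fold is given. Raw signals of miR-25 ran in the reverse order. They were 2.39 and 2.86 in young small, 3.51 and 4.17 in aged large, and 5.76 and 4.70 in young large oocytes. The part of scaling in the order of miR-25 was not tested.

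**Figure D1:**
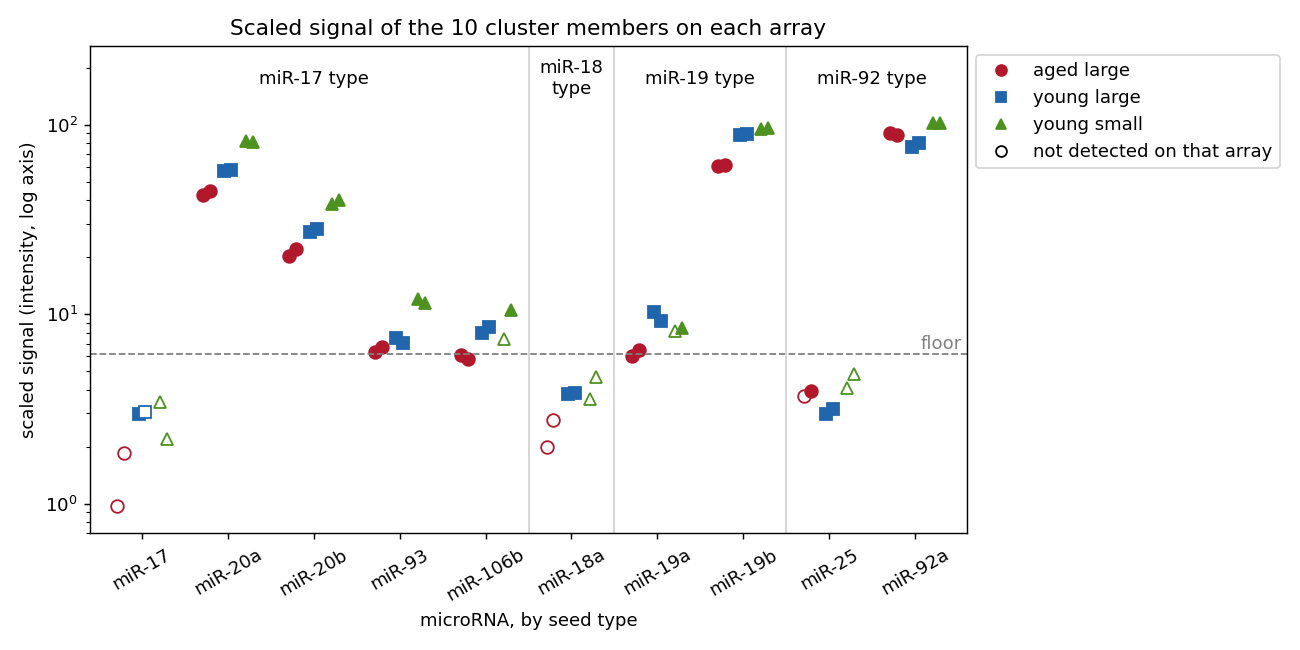
Scaled signal (intensity, log axis) of each of the 10 members on each array, grouped by seed type; circles are aged large, squares young large and triangles young small oocytes, and open symbols were not detected on that array. miR-20a and miR-20b step up from aged large to young large to young small oocytes, whereas miR-92a is lowest in young large oocytes, at 76.0 and 80.1.

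Aged were set against young large oocytes to see what differs with maternal age at 1 oocyte size. Both tested members of the miR-19 type fell: miR-19a averaged 6.25 ± 0.353 in aged large and 9.75 ± 0.789 in young large oocytes, and miR-19b averaged 60.7 ± 0.663 in aged large and 88.7 ± 0.530 in young large oocytes (SD, n = 2 each). Their log2 changes were -0.62 ± 0.07 and -0.55 ± 0.04 (SE; limma, adjusted p = 0.00440 and 0.000757), and ranked 4 and 5 from the lowest of 81 microRNAs tested. In the miR-17 type 2 of 4 tested members fell, miR-20a with a change of -0.40 ± 0.04 and miR-20b with -0.39 ± 0.06 in log2 (SE; limma, adjusted p = 0.00346 and 0.0122). miR-93 and miR-106b had -0.15 ± 0.06 and -0.42 ± 0.18 (SE; limma, adjusted p = 0.0972 and 0.134) and did not pass. miR-92a rose instead, by 0.19 ± 0.04 in log2 (limma, adjusted p = 0.0267, SE given).

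Of the 7 members tested, 4 fell, 1 rose and 2 did not pass. Over all 81 microRNAs tested, 46.9% passed, 22.2% as lower and 24.7% as higher, and 44 had an unadjusted p under 0.05. The median log2 change was -0.40 over the tested members and 0.06 over all microRNAs tested. In 6 members the aged arrays lay below the young large ones and in 1 above, without overlap. Such separation was seen in 80.2% of all tested, with 34.6% lower and 45.7% higher. By cluster, 3 of 4 tested products of miR-17-92 fell and 1 rose, 2 of 3 of miR-106a-363 fell and 1 rose, and 0 of 2 from miR-106b-25 passed, with miR-19b and miR-92a counted in both of their clusters. The blood cell marker miR-223 had scaled signals of 50.5 and 54.3 in aged large and 23.7 and 24.95 in young large oocytes, and rose by 1.11 ± 0.16 in log2 (limma, adjusted p = 0.00741, SE given). Its part in the members' changes was not tested.

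The calls differed in how firmly they held. miR-19a and miR-19b kept theirs whichever of the 6 arrays was left out, although miR-19a lay near the floor on both aged large arrays. miR-20a lost its call without young small array 1 (limma, adjusted p = 0.0568), and miR-20b without that array or young large array 2 (limma, adjusted p = 0.0788 and 0.0530). These arrays matter also where they are not compared, since the groups share 1 estimate of the spread. miR-92a kept its call only without young large array 2, with log2 changes of 0.16 to 0.23 and adjusted p up to 0.142 in limma, and lost it with the replicate number as a block (adjusted p = 0.0658). It also lost it with a lower floor (0.0716), with a pseudocount of 1 (0.0863) and in a fit of only the 4 arrays compared (0.0581, all adjusted p in limma). miR-106b, which did not pass, was called lower in that fit and without young small array 1 or 2 (limma, adjusted p = 0.0185, 0.0247 and 0.0177).

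**Figure D2:**
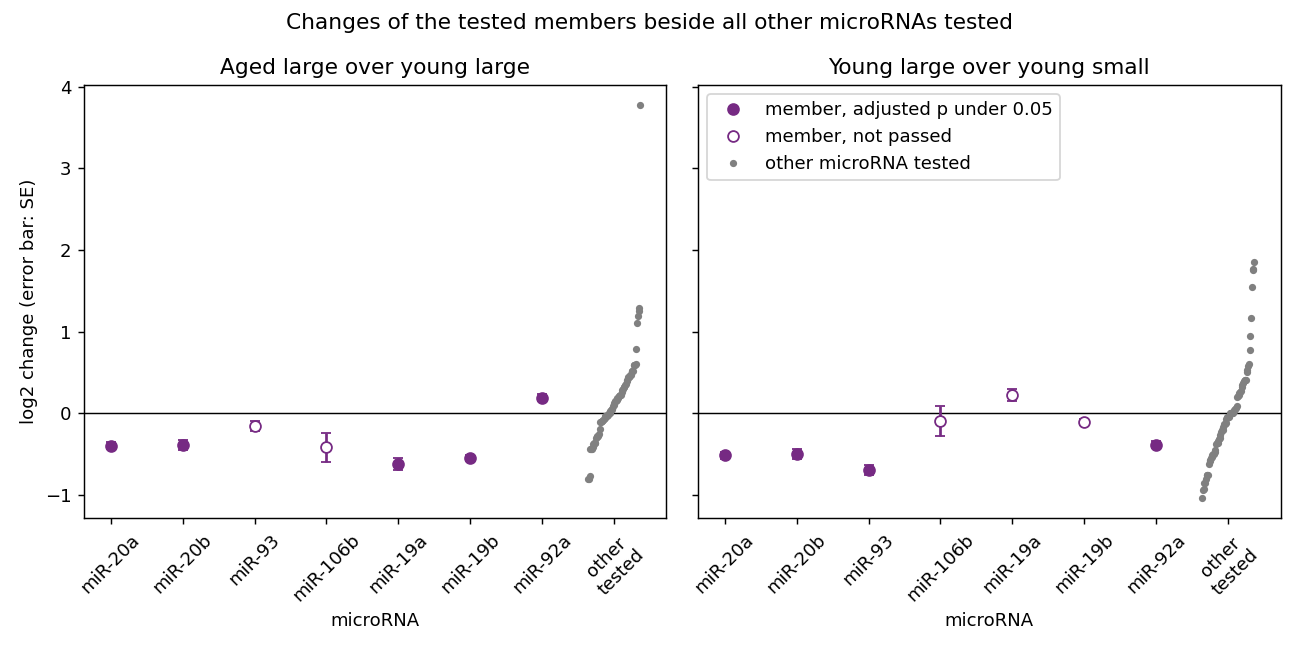
Log2 change with its standard error for the 7 tested members in each comparison, beside every other microRNA tested (grey); filled points passed. In aged over young large oocytes miR-19a and miR-19b are lowest among the members and miR-92a is above 0; in young large over young small oocytes miR-93 is lowest at -0.69.

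Growth was examined within the young mice, by large over small oocytes. This comparison shares the young large arrays with the one above, so the values are given side by side and no relation between the comparisons is drawn. In the miR-17 type 3 of 4 tested members were lower in large oocytes: miR-93 averaged 7.28 ± 0.326 in large and 11.8 ± 0.395 in small, miR-20a 57.2 ± 0.454 in large and 81.6 ± 0.803 in small, and miR-20b 27.7 ± 0.675 in large and 39.1 ± 1.27 in small oocytes (SD, n = 2 each). The log2 changes were -0.69 ± 0.06, -0.51 ± 0.04 and -0.50 ± 0.06 (SE; limma, adjusted p = 0.00136, 0.00136 and 0.00404). miR-92a fell as well, with -0.38 ± 0.04 in log2 (SE; limma, adjusted p = 0.00290), with means of 78.1 ± 2.86 in large and 101.8 ± 0.319 in small oocytes (n = 2 arrays each, SD). Neither member of the miR-19 type passed. miR-19a had 0.22 ± 0.07 and miR-19b -0.11 ± 0.04 in log2 (SE; limma, adjusted p = 0.0677 for both). For miR-106b the value was -0.10 ± 0.18 (SE; limma, adjusted p = 0.685), with overlapping groups.

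Of the 7 members tested, 4 fell, 0 rose and 3 did not pass, and 6 had an unadjusted p under 0.05 in limma. Of all 79 microRNAs tested, 49.4% passed, 25.3% as lower and 24.1% as higher, and 45 had an unadjusted p under 0.05 in limma. The median log2 change was -0.38 over the tested members and -0.07 over all tested. Large-oocyte arrays lay below the small ones without overlap in 5 members and above in 1, beside 83.5% of all tested without overlap, 45.6% lower and 38% higher. All 4 calls were lost without young small array 1 (limma, adjusted p = 0.0647 for miR-20a, 0.0786 for miR-20b, 0.0780 for miR-92a and 0.0569 for miR-93), with log2 changes still between -0.62 and -0.35. miR-223 was at 23.7 and 24.95 in young large oocytes and was not detected in young small ones, at 8.30 and 5.61.

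The scaled signals and tested changes so far depend on how the arrays are scaled. Under 7 ways of scaling, the ageing changes of miR-19a, miR-19b, miR-20a, miR-20b, miR-93 and miR-106b stayed negative, and miR-19a passed under all 7, with log2 changes from -1.40 to -0.59. miR-19b, miR-20a and miR-20b passed under 6 of 7, and miR-93 and miR-106b under 3 of 7. The change of miR-92a was positive under 3, negative under 3 and 0 under quantile normalization. For growth the sign was less settled: miR-93 and miR-20a stayed negative under 6 of 7, miR-20b under 5, miR-92a under 4 and miR-19b under 2, while miR-19a was positive under all 7 and passed under 4. The growth calls as lower held under fewer: 4 of 7 for miR-93, 3 for miR-20b, and 2 each for miR-20a and miR-92a. Without scaling, each of these passed as higher instead. Over all microRNAs tested, changing the scaling shifted the median log2 change by -0.631 to 0.0554 for ageing and by 0.0247 to 1.47 for growth. Ageing calls split into 20 higher and 18 lower as reported, into 5 and 57 for unscaled arrays, 6 and 31 for the sum of detected signals, 6 and 28 for hur control entries, 11 and 20 for quantiles, and 25 and 14 for the median. Growth calls split into 19 higher and 20 lower as reported, into 90 and 0 for unscaled arrays, 23 and 0 for the percentile of all entries, 29 and 4 for the sum, 25 and 5 for hur entries, and 22 and 15 for quantiles.

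**Figure D3:**
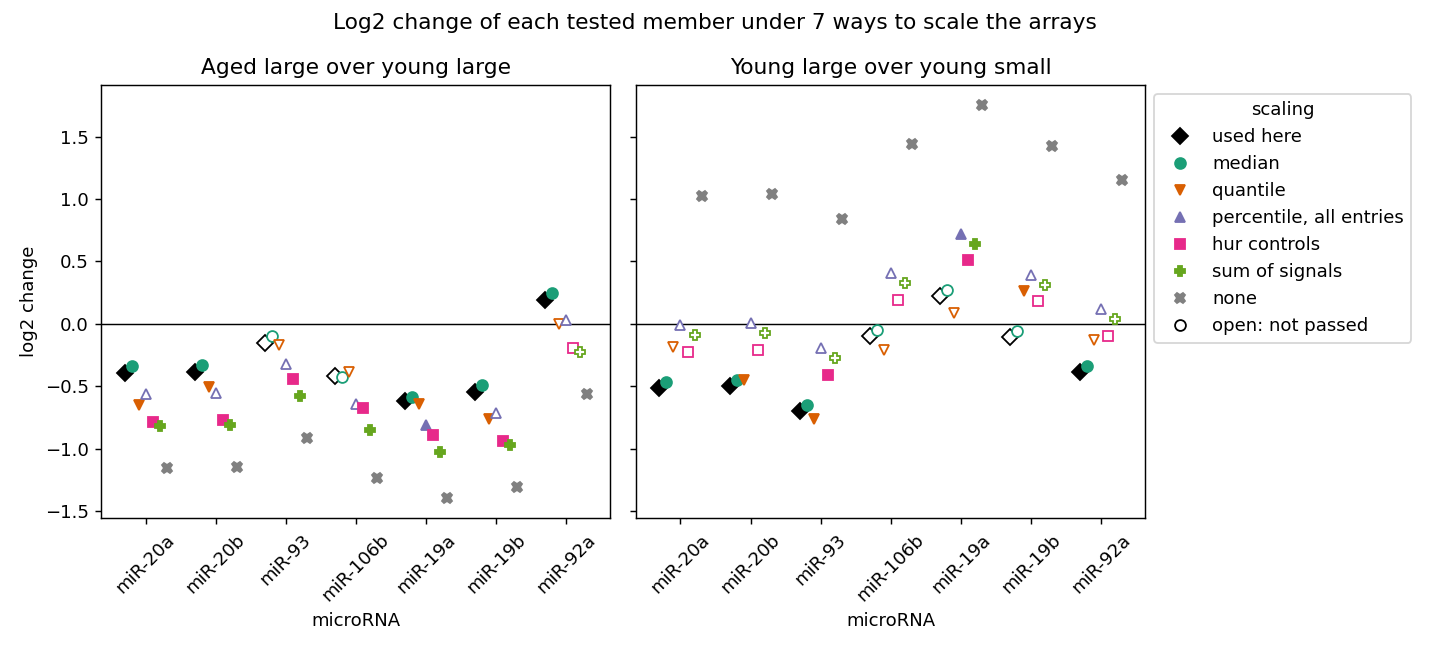
Log2 change of each tested member under the 7 scalings, with filled symbols where the change passed. In the ageing panel every point of miR-19a and miR-19b lies below 0; in the growth panel the points of unscaled arrays lie far above the others.

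The ratio of 1 member to another on the same array needs no scaling. On a common transcript such a ratio also compares products that share their source, apart from the second copies of miR-19b and miR-92a. miR-92a and miR-20a were taken as the members to divide by, the first with earlier results of these data known and the second after the data were seen. All other microRNAs were fitted in the same way, so that each adjusted p is over the whole array.

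Relative to miR-92a, the other tested members were all lower in aged than in young large oocytes. The log2 ratio of miR-19b to miR-92a was -0.58 and -0.53 in aged large, 0.22 and 0.15 in young large, and -0.09 and -0.09 in young small oocytes. That of miR-20a was -1.09 and -0.99 in aged large, -0.42 and -0.48 in young large, and -0.31 and -0.33 in young small oocytes. In both the aged arrays lay below the other 4 arrays. The changes relative to miR-92a were -0.83 ± 0.10 for miR-19a, -0.74 ± 0.06 for miR-19b, -0.59 ± 0.06 for miR-20a, -0.58 ± 0.08 for miR-20b, -0.67 ± 0.17 for miR-106b and -0.35 ± 0.09 for miR-93 (SE; limma, adjusted p from 0.00109 to 0.0278). All 6 of 6 passed as lower. Of the 85 microRNAs tested 50.6% passed, 30 as lower and 13 as higher, and the divisor was itself the member called higher above. The calls of miR-20a and miR-20b, and of miR-19a and miR-19b, survived the loss of any 1 array (limma, adjusted p up to 0.0338). miR-106b lost it without any 1 of the 4 large-oocyte arrays, and miR-93 without any 1 array except young large array 2 (limma, adjusted p up to 0.170 and 0.125).

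For growth relative to miR-92a, miR-19a was higher by 0.60 ± 0.10 and miR-19b by 0.28 ± 0.06 in young large than in young small oocytes in log2 (SE; limma, adjusted p = 0.00764 and 0.0133). miR-93 was lower, with -0.31 ± 0.09 (SE; limma, adjusted p = 0.0339), and miR-20a, miR-20b and miR-106b did not pass, with -0.13 ± 0.06, -0.11 ± 0.08 and 0.29 ± 0.17 (SE). Thus 3 of 6 passed, beside 49.4% of 83 tested, of which 7 were lower and 34 higher. The value of miR-106b lay level with that of miR-19b, with a wider error. miR-19a kept its call without any 1 array, miR-19b lost it without either young small array (limma, adjusted p up to 0.0737), and miR-93 lost it without any 1 array except young large array 1 (limma, adjusted p up to 0.147).

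**Figure D4:**
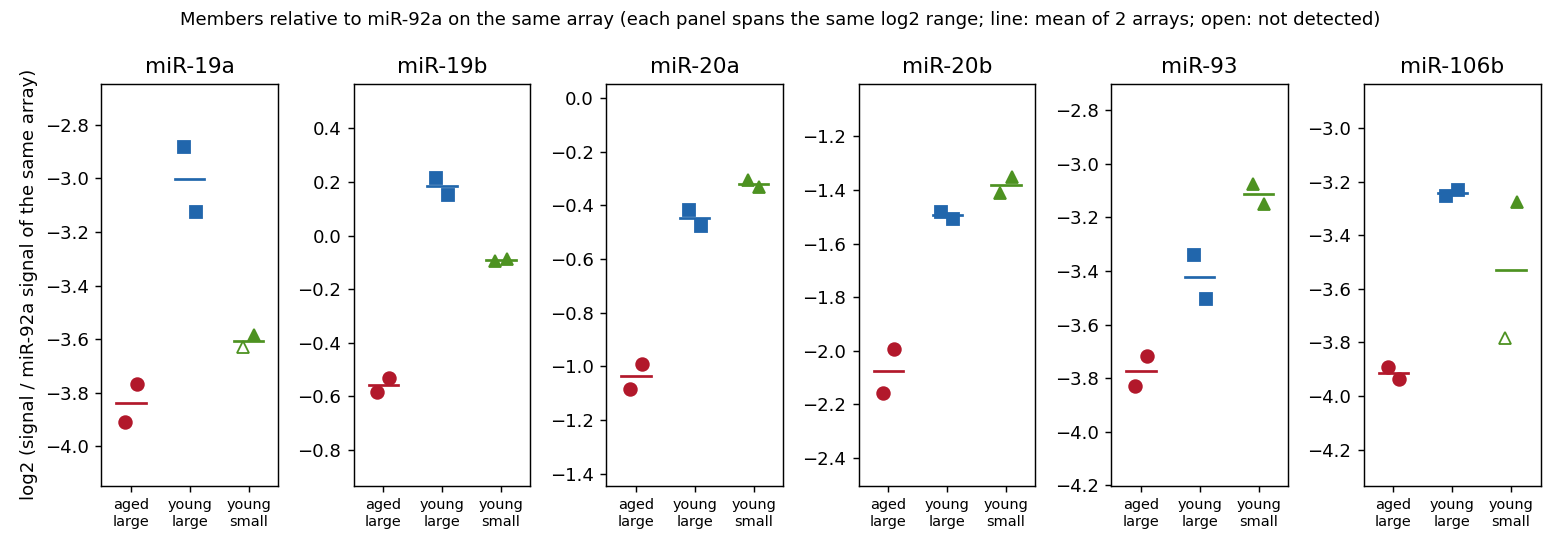
Log2 ratio of 6 members to miR-92a on the same array, with 1 point per array, a line at the mean of 2 arrays and panels that each span the same log2 range; open symbols were not detected. Aged large arrays are lowest in every panel, and young large arrays are highest for miR-19a, miR-19b and miR-106b but lie below young small arrays for miR-20a, miR-20b and miR-93.

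Dividing by miR-20a set the other members against 1 member of the miR-17 type, which does not stand for the whole type. In growth miR-19a was higher by 0.73 ± 0.08 and miR-19b by 0.40 ± 0.05 in log2 (SE; limma, adjusted p = 0.00198 and 0.00250). Both kept the call without any 1 array. They were the 2 of 7 members that passed. miR-106b, itself of the miR-17 type, had 0.42 ± 0.19, level with miR-19b, and did not pass (SE; limma, adjusted p = 0.134). Of 86 microRNAs tested 46.5% passed, 35 as higher and 5 as lower, so higher was the general direction with this divisor. In ageing miR-92a was higher than miR-20a by 0.59 ± 0.06 (SE; limma, adjusted p = 0.00196), whichever array was omitted. miR-19a did not pass, with -0.24 ± 0.08 (SE; limma, adjusted p = 0.0509). miR-19b was lower, with -0.15 ± 0.05, and miR-93 higher by 0.24 ± 0.06 (SE; limma, adjusted p = 0.0486 and 0.0225). miR-25 also passed as higher, but no size is given, since young large arrays lay at the floor of that fit and 1 of 2 aged large arrays did not detect it. The calls of miR-19b, miR-93 and miR-25 held in 2, 1 and 3 of 6 fits with an array left out (limma, adjusted p up to 0.200, 0.113 and 0.0970). Thus 4 of 7 members passed, 3 of them as higher. Of 88 microRNAs tested 64.8% passed, 51 as higher and 6 as lower. The call of miR-19b was kept only without either aged large array, that of miR-93 only without young large array 1, and that of miR-25 only without either aged large array or young small array 2. miR-20b relative to miR-20a did not pass in either comparison, with 0.0097 ± 0.06 in ageing and 0.015 ± 0.06 in growth (SE; limma, adjusted p = 0.898 and 0.938).

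The microRNAs with the most similar pattern were sought among the 51 others detected on all 6 arrays, by the root mean square distance between mean-centred log2 scaled signals over the 6 arrays. Nearest to the mean of miR-20a, miR-20b and miR-93 were miR-26b, miR-29b and miR-29a, at 0.04, 0.12 and 0.17, where the median of all 51 was 0.44. Nearest to miR-19b were miR-22, miR-96 and miR-141, at 0.11 each, beside a median of 0.39. Nearest to miR-92a were let-7g, let-7f and miR-1224, at 0.07, 0.08 and 0.10, beside a median of 0.27. These are descriptions over 6 arrays that share 1 scaling, and miR-19b and miR-92a each stood alone for their seed type.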

How the data were processed

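Cy3-labelled total RNA was hybridised to Agilent mouse arrays that follow miRBase 10.1, per the labels, and the submitters' processing notes name Agilent Feature Extraction 9.5. The deposited scanner files hold, per the file headers, a total signal intensity for each microRNA with its error, a detected or not detected flag, and the fraction of inlier spots. Intensities are linear, background-subtracted (42.3% to 56% of an array's entries were at or below 0) and not normalized between arrays. The authors' deposited series table repeats these intensities, linear and uncentred, but has 0 for those below 10 (0 of 577 entries depart from this), which sets 23 to 31 detected entries per array to 0.

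Control entries were left out. Each array was divided by the 75th percentile of its signals for the 56 microRNAs that every array detected. Values under 6.17, the largest of the 6 arrays' lowest detected scaled signals, were raised to it, and log2 was taken. Tests covered microRNAs detected on both arrays of a compared group and above the floor on at least 1 array. The 16 at the floor on all 6 arrays have no measured spread, and keeping them took the prior SD of limma from 0.0625 to 0.00743 and the fitted microRNAs from 81 to 97. Group means were fitted to all 6 arrays together with lmFit and eBayes (limma 3.58.1, R 4.3.3), leaving 3 residual and adding 1.27 prior degrees of freedom. The two-sided p-values were adjusted by Benjamini-Hochberg over all microRNAs tested, with a threshold of 0.05. Means ± SD are of scaled signals before the floor. The number of arrays limits the precision. The fit was tested on simulated arrays in which only microRNAs well above the floor were changed, so dim members were not covered. Figures were drawn with matplotlib 3.10.9.

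All 10 members are named, as are other cluster products, microRNAs with the same seed, and the 3 nearest patterns per seed type. The members and lists were chosen with earlier results of these data known. No label pairs arrays by replicate number, and deviations from the group means of same-numbered arrays correlated at 0.20 for the ageing groups and -0.17 for the growth groups. Alternatives were other scalings, floors, filters, the series table, other fits and each array left out. Scaling by miR-20a and a crossed block came after the data were seen.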

Additional observations from a re-analysis of the deposited data

How the results depend on the processing

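Counts of calls, over all microRNAs and over the members, were 38 and 5 for ageing and 39 and 4 for growth. They were 62, 8, 90 and 9 without scaling, and 10, 1, 23 and 1 where all entries set the percentile. The growth count of members was 1 with the sum of detected signals, 2 with hur entries and 2 with miR-20a as divisor. These were not the same calls, since the reported 4 were all lower. The 1 with the sum, like the 1 where all entries set the percentile, was miR-19a as higher. With hur entries miR-93 was lower and miR-19a higher. With miR-20a as divisor miR-19a and miR-19b were higher, and all 9 without scaling were higher. Detection on all 6 arrays gave 25 for ageing over all microRNAs. A threshold of 0.01 gave 18 and 3 for ageing and 25 over all microRNAs for growth. Leaving out 1 array gave 23 to 34 and 3 to 5 for ageing, and 15 to 39 and 0 to 5 for growth, lowest each time without young small array 1. Keeping microRNAs at the floor gave 29, 5, 35 and 5. Counts under the other alternatives stayed within 1.5 times.

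With the replicate number as a block the counts were 29, 4, 35 and 4, and among the members it changed only the ageing call of miR-92a. With the numbers of the young large arrays crossed, they were 36, 5, 42 and 5.

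Signs turned as follows where either value passed. Without scaling, miR-92a had -0.56 in ageing, and in growth miR-106b had 1.44, miR-19b 1.43, miR-20a 1.02, miR-20b 1.04, miR-92a 1.15 and miR-93 0.84. miR-92a in ageing had -0.23 with the sum of detected signals and -0.19 with hur entries. In growth miR-92a had 0.12 and miR-20b 0.0046 where all entries set the percentile, miR-92a 0.039 with the sum, and miR-19b 0.26 with quantile normalization and 0.28 relative to miR-92a. Relative to miR-20a, miR-20b had 0.0097 and miR-93 0.24 in ageing, and miR-19b 0.40, miR-20b 0.015 and miR-92a 0.13 in growth. Growth signs turned with neither value past the threshold for miR-19b (0.39 where all entries set the percentile, 0.32 with the sum and 0.18 with hur entries) and for miR-106b (0.41, 0.33 and 0.19 there, 0.29 relative to miR-92a, 0.42 relative to miR-20a and 0.14 without young small array 2). Each scaling other than quantile normalization divides an array by 1 factor, which moves all changes between signals above the floor alike; otherwise the cause was not tested. Low signal over background limits miR-17, miR-18a and miR-25.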
